A study of Mus musculus with 12 samples.

Results

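The 38 genes described here encode the mouse proteasome: the core particle with its constitutive and immunoproteasome subunits, the regulatory particle, and the activators of the core. They were taken by symbol from a count table of 56980 gene IDs from bone marrow-derived macrophages. All 38 were found, and all 38 passed the filter on low counts. Of these, 5 (Psmb8, Psmb9, Psmb10, Psme1 and Psme2) are the interferon-inducible subunits and activators, and the other 33 are the constitutive subunits and the remaining activators. They were chosen by name and role, with earlier results of these data known.

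Macrophages were grown for 7 days from mouse bone marrow in medium conditioned by L929 cells, which supplies macrophage growth factor. The genotypes are labelled wildtype (WT) and RankCre-Regnaes3cKO (cKO). The latter is read here as a conditional knockout of Regnase-3, the RNA-binding protein encoded by Zc3h12c, with the recombinase Cre driven by Rank (Tnfrsf11a), so deletion depends on Rank expression in the cells or their precursors. No group with Cre alone is described among the samples used here. Each genotype was profiled as M0, without added stimulus, and as M1. The M1 state is taken as the stimulated one. The protocol names 100 ng/ml of lipopolysaccharide, a bacterial cell wall component, together with 10 ng/ml of interferon-gamma, and says only that cells did or did not receive them. The 4 groups, WT_M0, cKO_M0, WT_M1 and cKO_M1, had 3 libraries each. Age, sex, strain and duration of stimulation are not given in the labels. The labels do not say whether the libraries of a group came from separate mice, so every p-value measures the spread between these libraries, which may be technical.

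The proteasome degrades proteins tagged with ubiquitin. Its 20S core is a barrel of outer alpha rings and inner beta rings, and on each beta ring the cutting is done by Psmb5 (chymotrypsin-like), Psmb6 (caspase-like) and Psmb7 (trypsin-like). Interferon-gamma is known to induce Psmb8, Psmb9 and Psmb10, which take the places of Psmb5, Psmb6 and Psmb7 in newly built immunoproteasomes and favour peptides that fit MHC class I. The 19S particle, with its ATPase ring (Psmc genes) and its scaffold and lid (Psmd genes), binds and unfolds tagged proteins. PA28 alpha and beta (Psme1 and Psme2), PA28 gamma (Psme3) and PA200 (Psme4) are alternative caps of the core.

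The windows before the start of 2 inducible genes and of the constitutive genes they replace are shown because the ratios of these pairs are described below. Psmb10 is left out because no window was found for Psmb7, its constitutive counterpart. Each is the 250 bases upstream of the annotated RefSeq start on GRCm38.p6, 5′ to 3′ along the gene, with matches to ISRE, GAS, kappa-B or ARE in capitals. They lie at chr17:34197945-34198194 (plus strand), chr14:54617996-54618245 (minus strand), chr17:34187331-34187580 (minus strand) and chr11:70525107-70525356 (plus strand).
Psmb8: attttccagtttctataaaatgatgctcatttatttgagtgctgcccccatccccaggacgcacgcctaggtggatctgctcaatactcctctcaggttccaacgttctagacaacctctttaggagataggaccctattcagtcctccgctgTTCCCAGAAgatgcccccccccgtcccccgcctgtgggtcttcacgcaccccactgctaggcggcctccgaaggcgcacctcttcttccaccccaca
Psmb5: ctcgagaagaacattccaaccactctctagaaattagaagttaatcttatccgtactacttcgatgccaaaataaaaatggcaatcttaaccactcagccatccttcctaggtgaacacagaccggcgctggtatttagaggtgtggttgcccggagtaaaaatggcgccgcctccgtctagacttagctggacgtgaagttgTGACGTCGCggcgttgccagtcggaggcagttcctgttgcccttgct
Psmb9: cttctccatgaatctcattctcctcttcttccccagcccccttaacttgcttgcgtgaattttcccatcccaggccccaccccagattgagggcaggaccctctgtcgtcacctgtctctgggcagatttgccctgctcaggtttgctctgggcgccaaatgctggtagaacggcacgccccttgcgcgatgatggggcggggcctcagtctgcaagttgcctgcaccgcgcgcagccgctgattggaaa
Psmb6: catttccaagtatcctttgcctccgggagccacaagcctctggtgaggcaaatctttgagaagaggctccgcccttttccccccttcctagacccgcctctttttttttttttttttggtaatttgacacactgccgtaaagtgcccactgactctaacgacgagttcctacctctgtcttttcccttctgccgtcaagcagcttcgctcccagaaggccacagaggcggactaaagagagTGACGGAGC
The capitals mark a GAS match in Psmb8, 97 to 89 bases before the start, and an ARE match in Psmb5 and in Psmb6, 47 to 39 and 9 to 1 bases before it. Psmb9 had no match to these 4 motifs.

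Windows were found for 32 of the 38 genes, all 5 inducible genes among them, and each motif was searched on both strands, with overlapping matches of different motifs counted separately. Counts are of genes with a match in any of their windows, since Psme2, Psma6 and Psmc2 had more than 1, while the percentages are of single windows. GAS (TTCNNNGAA), the gamma-interferon activated site, matched in 1 of 5 inducible and 0 of 27 other genes, against 7.02% of 32851 RefSeq windows of this length. ISRE (GAAANNGAAA), the site type of interferon regulatory factors, matched in 0 of 5 and in 2 of 27 (Psmb3 and Psmd4), against 2.98%. For kappa-B (GGGANNTTCC), the site type of NF-kB, the counts were 0 of 5 and 1 of 27 (Psme4), against 1.21%. ARE (TGACNNNGC), the site type shared by NRF1 and NRF2, matched in 0 of 5 and 4 of 27 (Psmb5, Psmb6, Psmc6 and Psmd12), against 10.16%. The CCAAT box (CCAAT) matched in 1 of 5 and 11 of 27, against 33.85%. These are letter matches in a short window and show no binding.

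Library totals lay between 41721452 and 42197986 counts. Zc3h12c lay at 159 to 192 CPM (counts per library brought to one total, with TMM factors that leave extreme genes out) in WT_M1 and at 98.4 to 127 in cKO_M1, without overlap. In M0 its ranges, 15.6 to 17.2 CPM in WT and 13.6 to 18.5 in cKO, overlapped, so its level does not check the M0 labels. Of 7 macrophage markers none was at 0, and their summed level was 13992 to 18420 CPM over the 12 libraries. Of the 7, 1 was lower in cKO in M0 (log2 -0.72, adjusted p = 0.0103, edgeR's quasi-likelihood test), beside 0.953% of tested genes. In M1 1 was higher and 1 lower (-0.46), beside 8.98% and 9.67%. The interaction was higher for 2 of them and lower for 1, beside 4.02% and 4.14%. The summed levels of 7 markers each of B and plasma, T and NK, dendritic cells and neutrophils reached at most 14.1, 0.639, 5.59 and 15.99 CPM. Neutrophil markers summed to 0.844 to 2.84 CPM in M0 and 6.49 to 15.99 in M1, and dendritic markers to 0.628 to 1.49 and 3.45 to 5.59. For B and plasma cells the sums were 2.06 to 14.1 CPM in M0 and 0.397 to 3.01 in M1. The part of these cells in the results below was not tested. In bulk RNA, fewer cells of a type and less RNA per cell cannot be told apart.

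The 5 interferon-inducible genes were the members with the largest M1 to M0 differences in both genotypes, 3.61- to 5.42-fold in WT. The catalytic subunit Psmb8 stood at 80.4, 78.4 and 69.9 CPM in the 3 WT_M0 libraries and at 264, 277 and 285 in WT_M1. In cKO it stood at 74.99, 84.7 and 94.6 CPM in M0 and 365, 307 and 254 in M1. All 6 M1 libraries were above all 6 M0 libraries, and the log2 difference was 1.85 (SE 0.12) in WT and 1.86 (SE 0.12) in cKO (adjusted p = 1.25e-09 and 1.17e-09, edgeR's quasi-likelihood test with Benjamini-Hochberg adjustment over all genes, which holds for every adjusted p below).

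Psmb9, the inducible counterpart of Psmb6, had 49.7, 47.6 and 41.98 CPM in WT_M0 and 148.5, 179 and 184 in WT_M1. Its cKO values were 44.4, 50.6 and 54.5 CPM in M0 and 224, 176 and 156 in M1. M0 and M1 did not overlap in either genotype, with log2 differences of 1.88 (SE 0.13) and 1.90 (SE 0.13). Psmb10, the inducible counterpart of Psmb7, had 80.9, 85.1 and 79.5 CPM in WT_M0 and 302, 296 and 349 in WT_M1. In cKO it had 64.4, 85.3 and 89.2 CPM in M0, where replicate 1 was the lowest of all 12 libraries, and 382.5, 352 and 329 in M1. Its log2 difference was 1.95 (SE 0.11) in WT and 2.15 (SE 0.11) in cKO.

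Both genes of the PA28 alpha/beta cap rose. Psme1 went from 110.2, 106 and 109.8 CPM in WT_M0 to 424, 423 and 397 in WT_M1, and from 111, 118 and 126 to 472, 448.5 and 383 in cKO. Its groups did not overlap between the states, and the libraries of cKO_M1 spread the most. The log2 differences were 1.93 (SE 0.088) and 1.88 (SE 0.087). Psme2 had 111, 100.5 and 92.3 CPM in WT_M0 and 547, 546 and 556 in WT_M1. In cKO it had 103, 113 and 123 CPM in M0 and 762.5, 589 and 482 in M1, where the libraries were spread far more widely than in WT_M1. At 2.44 (SE 0.14) in WT (5.42-fold) and 2.43 (SE 0.14) in cKO, it had the largest log2 difference of the 38. Psme2 shares 59.3% of its 50-base words with the gene Psme2b, whose counts were 32.0% of those of Psme2 and which moved alike (2.15 and 2.23), so the split of reads between them is uncertain. Psmb9 shares 212 exon bases with Tap1 on the opposite strand, and Tap1 had 462% of its counts. No source used here gives the strand setting of the counting, so their reads in that stretch cannot be told apart.

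**Figure D1:**
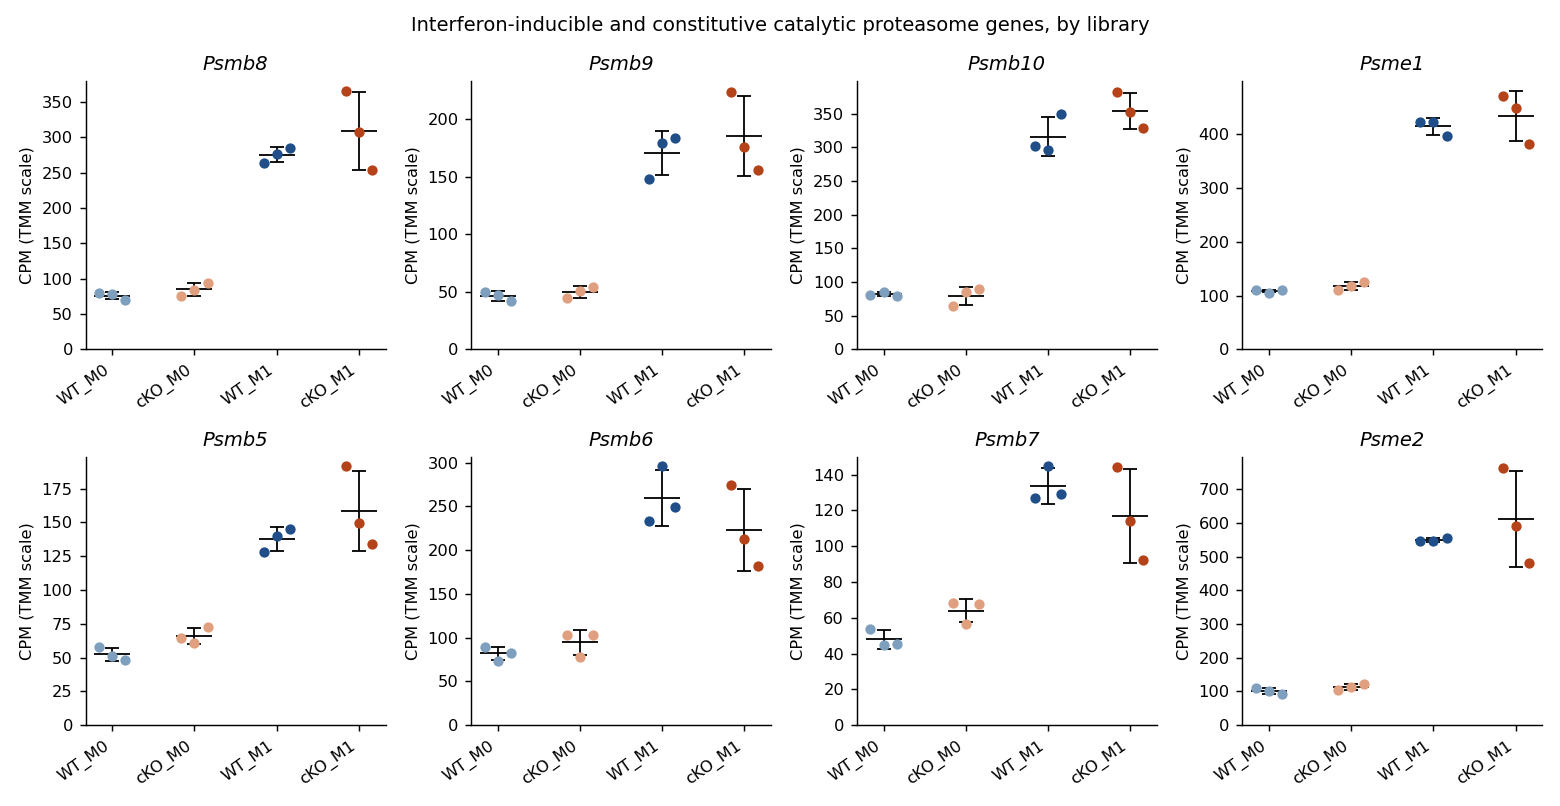
CPM (TMM scale, y axis, from 0) of the 5 interferon-inducible genes and the 3 constitutive catalytic genes in each of the 12 libraries, by group; points are libraries, and black bars the mean and SD of 3. Every gene is higher in all M1 than in all M0 libraries, and for Psme2 and Psmb8 the cKO_M1 libraries spread wider than the WT_M1 libraries.

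The constitutive catalytic subunits rose too, by less. Psmb5 stood at 57.8, 51.1 and 48.5 CPM in WT_M0 and 128, 139.9 and 145 in WT_M1, and at 64.3, 60.7 and 72.7 and 191, 149.5 and 134 in cKO_M0 and cKO_M1. Psmb6 stood at 89.4, 73.8 and 82.8 CPM and 234, 296 and 249.9 in WT, and at 103, 77.7 and 103 and 275, 213 and 182 in cKO. Psmb7 stood at 53.8, 44.7 and 45.2 CPM and 127, 145 and 129 in WT, and at 68.1, 56.3 and 67.7 and 144, 114 and 92.2 in cKO. For all 3 genes M1 lay above M0 with no overlap in either genotype. The log2 differences in WT were 1.39 (SE 0.12) for Psmb5, 1.66 (SE 0.15) for Psmb6 and 1.48 (SE 0.14) for Psmb7. In cKO they were 1.26, 1.24 and 0.87, in the same order. Psmb7 shares 405 exon bases on the opposite strand with Nek6, which had 87.8% of its counts, and Psmb5 shares 49.4% of its words with the copy Gm3375, which had 7.91% of its counts.

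The balance within each pair was taken as the ratio of counts per kilobase in the same library, which no scaling of libraries affects. Psmb8 over Psmb5 was 0.369, 0.408 and 0.383 in WT_M0 and 0.548, 0.526 and 0.522 in WT_M1. In cKO it was 0.31, 0.371 and 0.346 in M0 and 0.507, 0.546 and 0.503 in M1. Both genotypes had the higher ratio in M1 without overlap, by 0.46 in WT and 0.60 in cKO on the log2 scale (exact two-sided permutation p = 0.1 each, the smallest that 3 against 3 allows).

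Psmb9 over Psmb6 was 0.284, 0.3301 and 0.259 in WT_M0 and 0.325, 0.3098 and 0.376 in WT_M1, which overlapped (log2 difference 0.21, exact permutation p = 0.3). In cKO it was 0.2196, 0.333 and 0.271 in M0 and 0.418, 0.424 and 0.438 in M1, without overlap (0.66, p = 0.1 by the exact permutation test). Between genotypes in M1 it was higher in cKO in all 3 libraries, by 0.35 on the log2 scale (exact permutation p = 0.1). Psmb10 over Psmb7 had a mean of 3.46 ± 0.406 (SD, n = 3) in WT_M0, 4.77 ± 0.658 in WT_M1, 2.53 ± 0.5796 in cKO_M0 and 6.22 ± 0.928 in cKO_M1. M1 lay above M0 in both genotypes, by 0.46 in WT and 1.32 in cKO on the log2 scale (exact permutation p = 0.1 each), while the genotypes overlapped in M0 and in M1 (p = 0.2 each, exact permutation test). With 12 such comparisons over the 3 pairs, none can pass an adjusted threshold. The size of a ratio depends on the gene length: with the principal transcript's length in place of the deposited one, Psmb8 over Psmb5 averaged 0.803 in WT_M0 and 1.105 in WT_M1, and Psmb10 over Psmb7 1.52 and 2.101. The log2 differences are the same under either length.

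**Figure D2:**
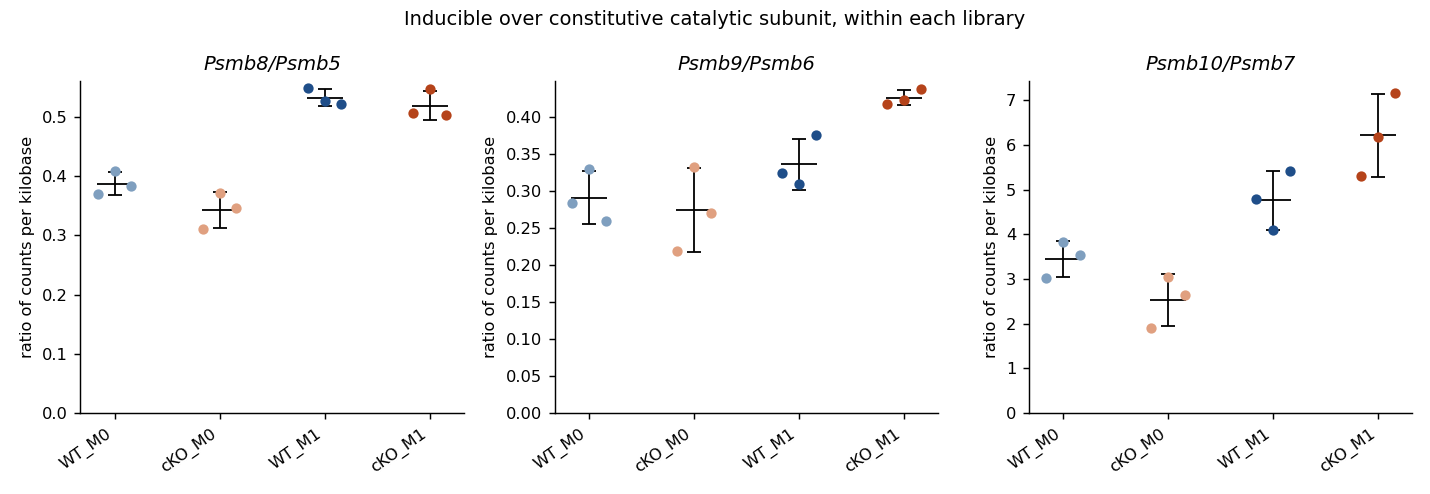
Ratio of counts per kilobase (deposited gene length, y axis, from 0) of each inducible catalytic subunit to the constitutive one it replaces, in each of the 12 libraries by group; points are libraries, and bars the mean and SD of 3. Psmb8/Psmb5 and Psmb10/Psmb7 are higher in M1 than in M0 in both genotypes, and Psmb9/Psmb6 overlaps between WT_M0 and WT_M1.

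In the alpha ring, which gates entry to the core, 7 of 7 genes rose in WT (log2 0.74 to 1.72, median 1.203) and 7 of 7 in cKO (0.51 to 1.57, median 1.09), where Psma1 turned to -0.029 with library totals in place of TMM. Psma5 had the largest difference of the 33 genes outside the inducible set. It stood at 53.4, 50.5 and 46.9 CPM in WT_M0 and 169, 162 and 165 in WT_M1, and at 58.9, 59.9 and 65.1 and 214, 175 and 156.5 in cKO. That is 1.72 (SE 0.10) in WT and 1.57 (SE 0.10) in cKO on the log2 scale, below the 1.85 of the lowest inducible gene in WT. Copies of Psma5 elsewhere in the genome (Gm8394 and Gm12989) share 37.2% and 31.1% of its words and had 11.6% and 12.4% of its counts. Psma3 rose by 1.203 (SE 0.084) in WT and 1.09 (SE 0.083) in cKO, with a copy, Gm13835, at 31.4% of its counts. Psma4 shares 25.6% of its words with the copy Gm6542, which had 8.68% of its counts.

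The 4 beta subunits without catalytic activity also rose in both genotypes, by a median of 0.86 in WT (0.67 to 1.28) and 0.84 in cKO (0.37 to 1.03) on the log2 scale. Psmb2 rose by 1.00 (SE 0.077) and 1.03 (SE 0.077). Psmb1 had the smallest difference of the core in cKO, 0.37 (adjusted p = 0.0309), which turned to -0.17 with library totals. It stood at 111, 83.1 and 111 CPM in cKO_M0 and 160.0, 124 and 111 in cKO_M1, which overlap at the M1 library of replicate 9. Without cKO_M0 replicate 2 or cKO_M1 replicate 7 its adjusted p was 0.154 or 0.197.

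In the 19S particle the 6 ATPases all rose, by a median of 1.01 in WT (0.71 to 1.15) and 0.73 in cKO (0.46 to 1.02). In cKO, Psmc3 turned to -0.072 with library totals. Psmc3 shares 215 exon bases on the opposite strand with Slc39a13, which had 13.6% of its counts. Psmc1, one of these ring ATPases, rose by 1.15 (SE 0.083) and 1.02 (SE 0.083). Of the 11 other 19S genes, 10 rose in each genotype, by medians over the 11 of 0.99 and 0.62, but with library totals the sign of Psmd1 turned in both and that of Psmd8, Psmd12 and Psmd14 in cKO. Psmd11, a lid subunit, had 57.03, 62.4 and 59.3 CPM in WT_M0 and 176, 181 and 171 in WT_M1, and 62.5, 63.5 and 65.4 and 167.5, 152 and 145 in cKO. Its log2 difference, 1.56 (SE 0.075) in WT and 1.28 (SE 0.074) in cKO, was the largest of the 19S genes. Psmd11 shares 18.9% of its words with A730017L22Rik, which had 5.1% of its counts. Psmd2, a scaffold of the base, and Psmd3, a lid subunit, rose by 1.17 and 1.14 in WT and by 0.98 and 0.99 in cKO. Psmd4, a receptor for ubiquitin chains, rose by 1.34 in WT and 1.03 in cKO.

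The lid subunit Psmd6 was the one 19S gene that passed in neither genotype. It stood at 54.6, 52.02 and 48.1 CPM in WT_M0 and 54.02, 52.03 and 55.3 in WT_M1, which overlap, and its log2 difference was 0.06 (95% interval -0.19 to 0.31). In cKO it stood at 68.5, 58.9 and 67.5 CPM in M0 and 82.5, 67.3 and 54.9 in M1, with a difference of 0.071 (-0.18 to 0.32). These intervals leave out differences as large as the median member's.

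The other caps had smaller differences than PA28 alpha/beta. Psme3, which encodes the mainly nuclear PA28 gamma, stood at 84.3, 87.6 and 82.6 CPM in WT_M0 and 104, 105 and 103 in WT_M1. In cKO it stood at 90.4, 97.3 and 91.7 CPM in M0 and 104, 102 and 103 in M1. The log2 difference passed in WT (0.29 (SE 0.065), adjusted p = 8.85e-04) and not in cKO (0.14 (SE 0.065), adjusted p = 0.0609); the difference between the genotypes was -0.15 (adjusted p = 0.354). In cKO it passed with DESeq2's size factors in edgeR (adjusted p = 0.0459), with DESeq2 (0.0241) and with counts halved (0.0493). With library totals the M1 to M0 difference of Psme3 turned to -0.29 in WT and -0.39 in cKO. Psme4, the PA200 gene, stood at 82.95, 97.99 and 85.7 CPM in WT_M0 and 206, 168 and 184.5 in WT_M1, and rose by 1.07 (SE 0.094) in WT and 1.163 (SE 0.094) in cKO. The ratio of Psme2 to Psme3 per kilobase went from 1.996 ± 0.181 (SD, n = 3) in WT_M0 to 8.85 ± 0.179 in WT_M1, and from 2.03 ± 0.187 to 9.92 ± 2.24 in cKO.

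In all, 37 of 38 members rose with M1 and 0 fell in WT, where 34.2% of the 15110 tested genes rose and 37.1% fell. In cKO 36 of 38 rose and 0 fell, against 34.2% and 36.0% of tested genes. The median log2 difference of the members was 1.13 in WT and 0.96 in cKO, beside -0.067 and -0.043 for all tested genes. The inducible 5 had medians of 1.93 and 1.90 (lowest 1.85, highest 2.44), and the other 33 had 1.07 and 0.81, with no gene of the 33 above any of the 5. These values are relative to the scale of the libraries. Scaled by library totals alone, the median of all genes shifted to -0.65 in WT and -0.58 in cKO, with 23.5% and 24.2% of called genes higher in place of 48.0% and 48.7%. Beside Psmd6 and Psme3, the sign turned for Psmd1 in WT, and in cKO for Psma1, Psmb1, Psmc3, Psmd1, Psmd8, Psmd12 and Psmd14, none of which passed there. On that scale 29 members were higher and 2 lower in WT (Psmd6 at -0.52 and Psme3 at -0.29), and 23 were higher and 2 lower in cKO (Psmd6 -0.47, Psme3 -0.39). Of all tested genes, 18.3% were higher and 59.6% lower there in WT, and 18.4% and 57.5% in cKO. Under TMM, DESeq2-type size factors and library totals alike, all 38 members lay above the median of all genes in both genotypes.

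**Figure D3:**
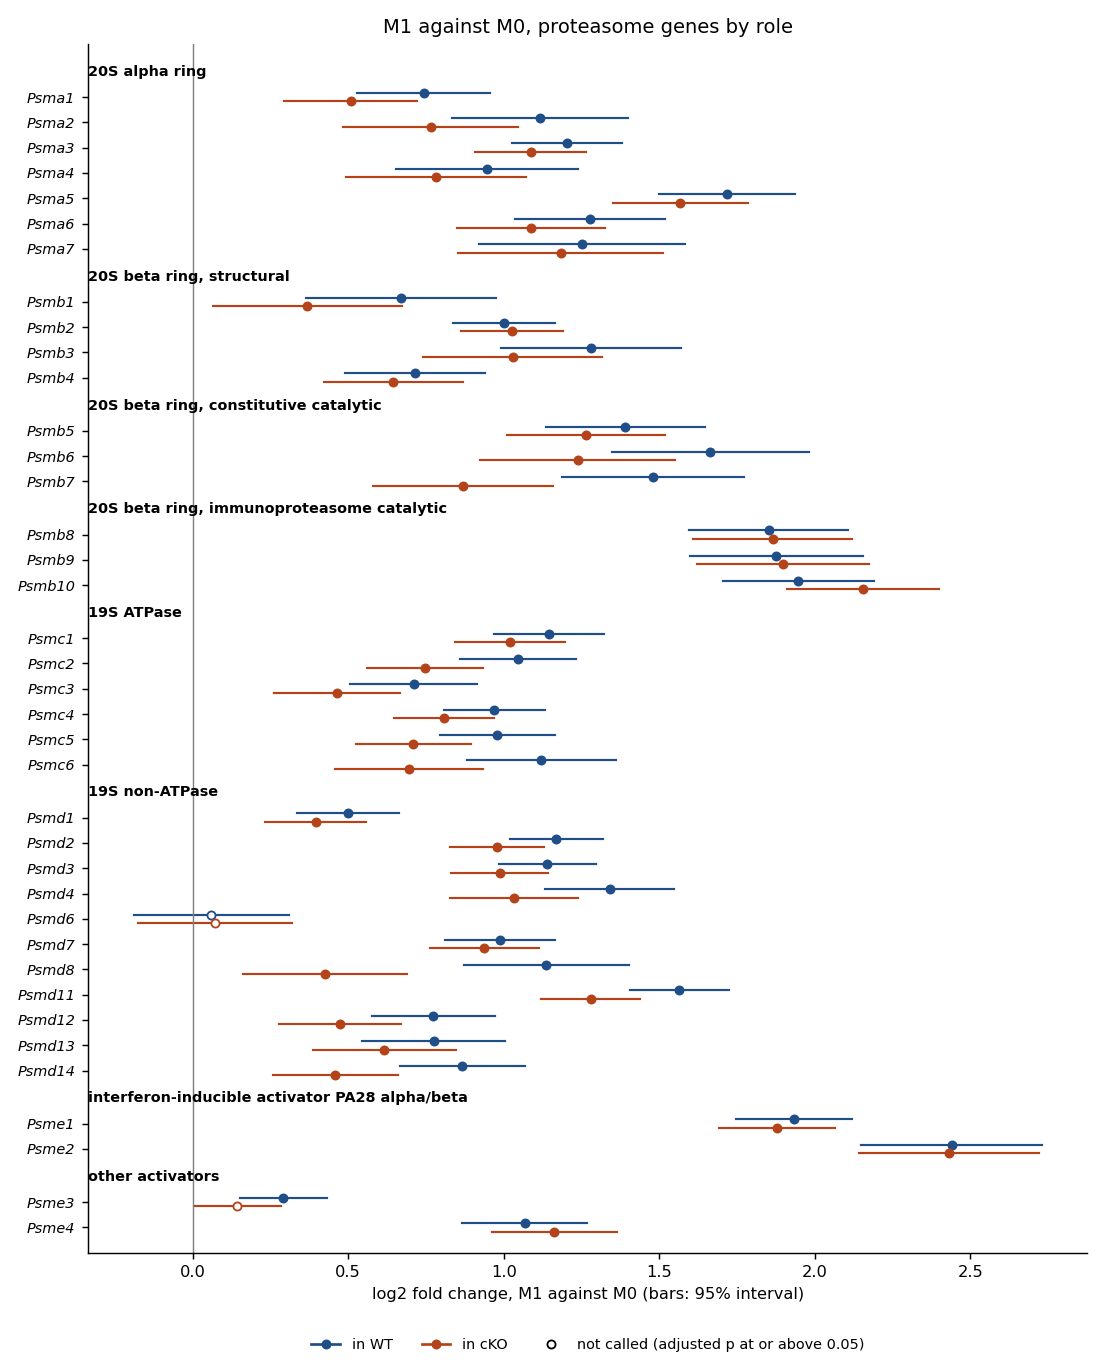
Log2 fold change of M1 against M0 (x axis; bars are 95% intervals) for the 38 genes grouped by role, in WT (blue) and cKO (red); filled points passed at an adjusted p under 0.05. The 5 interferon-inducible genes lie between 1.85 and 2.44, and Psmd6 lies near 0 in both genotypes on this scale (-0.52 and -0.47 with library totals).

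For cKO against WT in M0, no member passed under edgeR, where 0.662% of tested genes were higher and 0.953% lower. At an unadjusted p under 0.05, 23 of the 38 were higher and 0 lower, beside 10.1% and 8.54% of tested genes. DESeq2 called 2 members higher, Psma6 and Psmd14, beside 3.39% of the genes it tested, and edgeR without the low-count filter called 11, beside 2.58%. The fold changes lay on one side: 36 of 38 were above 0, with a median of 0.22 on the log2 scale, beside 0.0057 for all tested genes. Of the 38, 25 had all 3 cKO libraries above all 3 WT libraries and 0 had the reverse, against 13.3% and 12.9% of tested genes. Scaled by library totals, 23 of the 38 were higher without overlap, beside 14.1%. All members were measured in the same libraries, so these counts are not 38 separate observations.

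Psma6, an alpha ring gene with the smallest p, stood at 69.2, 63.5 and 62.2 CPM in WT_M0 and 88.5, 78.8 and 91.3 in cKO_M0, a log2 difference of 0.41 (SE 0.11) (adjusted p = 0.0802). Psmd14, the lid's deubiquitinase, stood at 68.5, 71 and 59.2 and 86.5, 72.7 and 85.6 CPM (log2 0.30 (SE 0.094)). Neither pair of groups overlapped. The next by p were Psma2 at 0.41, Psmb7 at 0.42, Psma4 at 0.40, Psmd12 at 0.27, Psmc6 at 0.32, Psmd6 at 0.33 and Psma5 at 0.29, none of which passed. By role the medians were 0.32 for the alpha ring, 0.28 for the other structural beta genes, 0.33 for the constitutive catalytic genes, 0.23 for the ATPases and 0.15 for the other 19S genes. The 5 inducible genes had a median of 0.12, from -0.04 for Psmb10 to 0.16 for Psme2. Psme3 lay at 0.13 and Psme4 at -0.039. With the B and plasma cell markers summing to 7.47 to 13.6 CPM in WT_M0 and to 2.06 to 14.1 CPM (median 2.61) in cKO_M0, their part in this difference was not tested.

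In M1, 1 member passed between the genotypes. Psmd8, a lid subunit, was lower in cKO and no member was higher, where 8.98% of tested genes were higher and 9.67% lower. It stood at 403, 562 and 404 CPM in WT_M1 and 333, 309 and 286 in cKO_M1. The groups did not overlap, and WT replicate 11 was well above the other 2. The log2 difference was -0.56 (SE 0.12) (adjusted p = 0.00546; between -0.65 and -0.40 with 1 of these 6 libraries left out, past the threshold each time). In M0 the same gene had stood at 229, 186 and 208 CPM in WT and 245, 208 and 238 in cKO, which overlap.

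The other members lay on both sides in M1: 25 of 38 were above 0 and the median was 0.058, beside 0.020 for all tested genes. Without cKO_M1 replicate 7 the median turned to -0.036, and without replicate 9 it was 0.12. Psmd6 was next by p at 0.34 (SE 0.12) (adjusted p = 0.0537), with cKO_M1 replicate 9 inside the WT range. Psmb2 followed at 0.20 (SE 0.076), with 120.1, 112 and 118 CPM in WT_M1 and 144, 135 and 124 in cKO_M1, and then Psmd11 at -0.19 (SE 0.073) and Psmd2 at -0.15 (SE 0.07). These 3 had groups that did not overlap. Psma6 at 0.22, Psmd4 at -0.17 and Psma4 at 0.23 overlapped, as did Psme3 at -0.013 and Psme4 at 0.057. In all, 1 member was higher and 3 were lower without overlap, beside 17.4% and 16.3% of tested genes. None of the inducible 5 passed, with log2 differences from 0.067 for Psme1 to 0.17 for Psmb10. The 95% interval was -0.081 to 0.41 for Psmb8 and -0.14 to 0.39 for Psmb9. DESeq2 called 1 member higher (Psmd6) and 3 lower (Psmd8, Psmd2 and Psmd11), beside 9.84% and 12.4% of the genes it tested. With library totals 2 were higher, Psmb2 and Psmd6, beside 13.1% of tested genes, and the share of called genes that were higher was 61.5% in place of 48.2%.

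The cKO_M1 libraries differed among themselves. Replicate 7 was the highest of its group for 34 of the 38 members, and its median distance from the WT_M1 mean was 0.22 on the log2 scale, against 0.042 for replicate 8 and -0.12 for replicate 9. For the 14 constitutive core genes the medians were 0.37, 0.070 and -0.12, and for the 5 inducible genes 0.40, 0.11 and -0.12. Without replicate 7, 3 members were lower in cKO (Psmd8, Psmd4 and Psmd11), beside 7.85% of tested genes. Without replicate 9, 4 were higher (Psma6, Psma7, Psmb2 and Psmd6), beside 8.92%. Both member counts, of 38, are near those shares. In M0 all 3 cKO libraries lay above the WT mean, at 0.22, 0.15 and 0.30, and the WT libraries at 0.065, 0.0094 and -0.063.

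**Figure D4:**
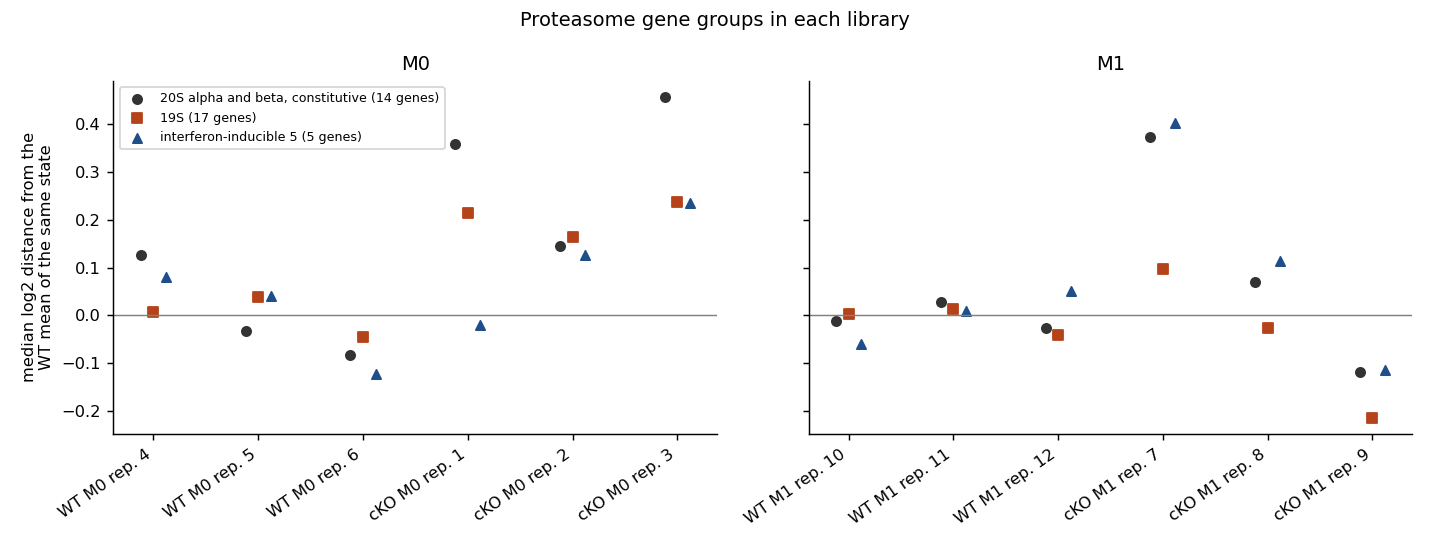
Median log2 distance of 3 groups of proteasome genes (symbols) from the mean of the WT libraries of the same state (y axis), for each of the 12 libraries, M0 left and M1 right. In M1 replicate 7 of cKO is above 0 and replicate 9 below 0 for all 3 groups of genes, and in M0 the constitutive core and 19S genes are above 0 in all 3 cKO libraries.

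**Figure D5:**
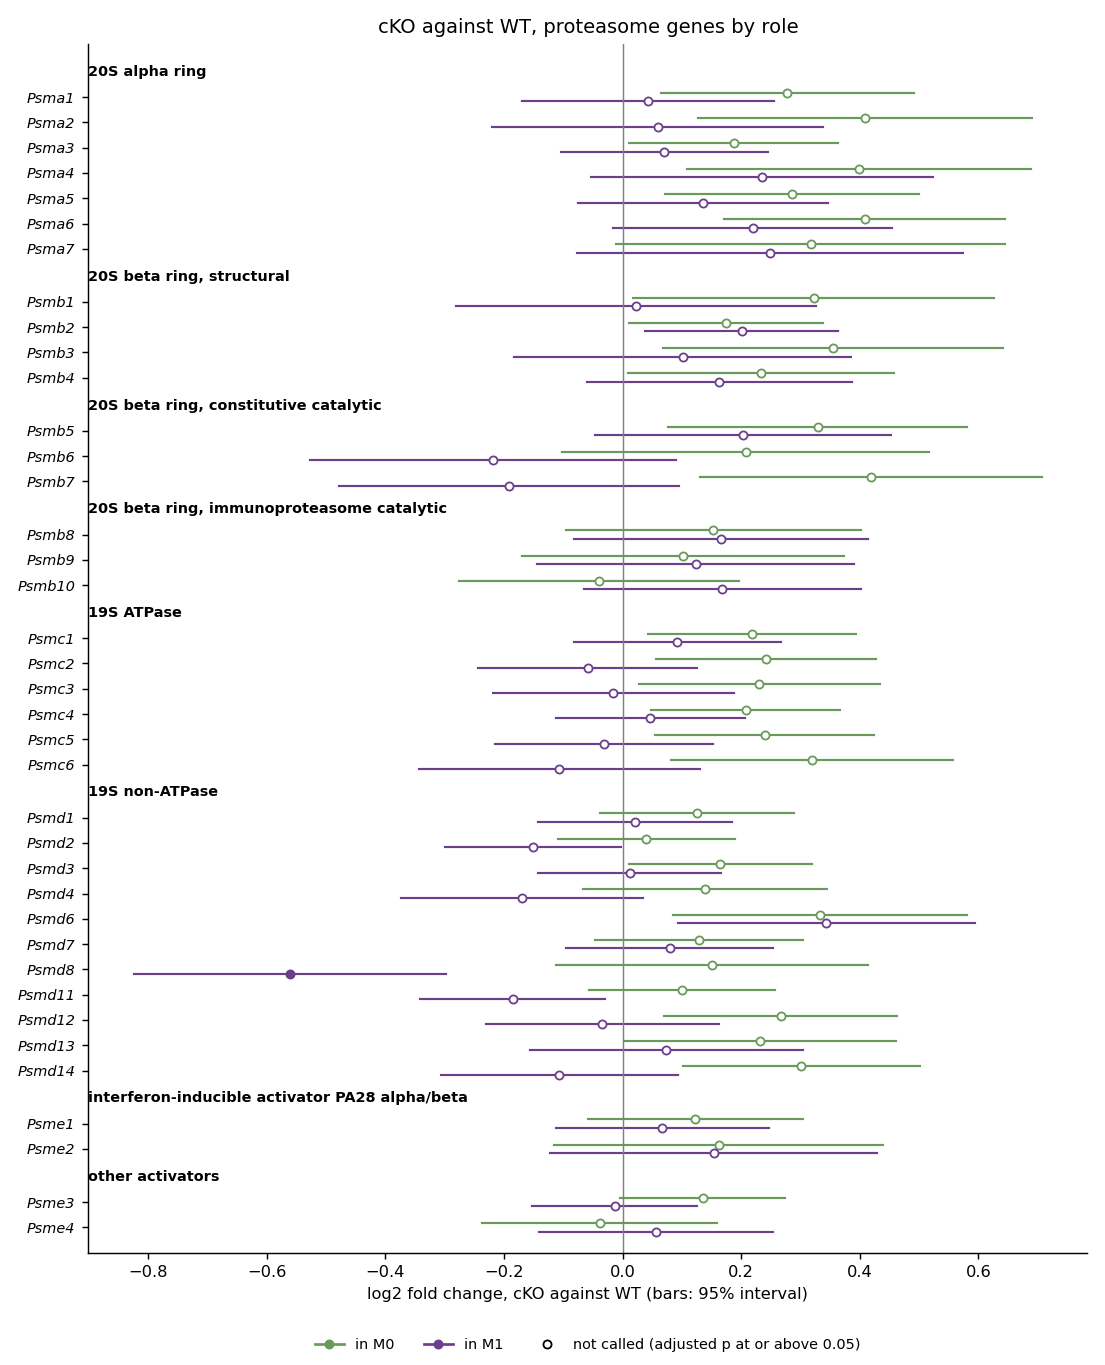
Log2 fold change of cKO against WT (x axis; bars are 95% intervals) for the 38 genes grouped by role, in M0 (green) and M1 (purple); filled points passed at an adjusted p under 0.05. In M0 36 of 38 points lie above 0 and none is filled, and in M1 Psmd8 is the filled point.

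Whether the M1 to M0 difference depended on genotype was tested by the interaction, the cKO effect in M1 minus that in M0. It was lower for 1 member, Psmd8, and higher for 0, where 4.14% of tested genes were lower and 4.02% higher. Psmd8 rose by 1.14 (SE 0.12) in WT and by 0.43 (SE 0.12) in cKO (-0.11 with library totals), and the interaction was -0.71 (SE 0.17) (adjusted p = 0.0223). That call was lost without WT_M0 replicate 6, cKO_M0 replicate 3 or cKO_M1 replicate 8 (adjusted p 0.0578, 0.0582 and 0.0605). Of the 38, 32 had an interaction below 0, with a median of -0.16, beside -0.0039 for all tested genes, and 9 were lower and 0 higher at an unadjusted p under 0.05, beside 11.8% of tested genes that were lower. The median was -0.30 without cKO_M1 replicate 7 and -0.11 without replicate 9. After Psmd8 came Psmb7 at -0.61 (adjusted p = 0.0619) and Psmd14 at -0.41 (adjusted p = 0.0714), neither of which passed. Both passed under DESeq2, which called 4 members lower, beside 7.33% of the genes it tested, and under edgeR without the low-count filter, which called 5, beside 4.31%. Psmd11, Psmc6, Psmc2, Psmd12, Psmd4 and Psmc5, all of the 19S particle, followed at -0.29, -0.43, -0.30, -0.30, -0.31 and -0.27. The number of members lower was 7 without cKO_M1 replicate 7, beside 4.6% of tested genes, and 3 without cKO_M0 replicate 2, beside 3.71%. The inducible 5 lay between -0.056 for Psme1 and 0.21 for Psmb10, and Psme4 at 0.096. With library totals 60.5% of genes called for the interaction were higher, in place of 49.3%.

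Levels between genes were compared per kilobase of the deposited gene length. In WT_M1 the highest were Psme2 at 312 ± 3.06 CPM per kilobase (SD, n = 3), Psme1 at 188 ± 6.99 and Psmb10 at 185 ± 17.01; the latter 2 do not differ beyond their spread. In WT_M0 the highest were Psmd2 at 70.01 ± 2.81, Psmd8 at 67.9 ± 6.97 and Psmc1 at 64.1 ± 0.261. Psmd8 differs from neither Psmd2 nor Psmc1 beyond its spread. Psmd6, at 19.2 ± 0.585, was the lowest member in WT_M1, and Psmd11, at 9.33 ± 0.426, in WT_M0. The order depends on the length: with the principal transcript, Psmd8 (135), Psme2 (105) and Psmb6 (103) led in WT_M0, while Psme2 and Psme1 still led in WT_M1 (571 and 373). On that length Psme2 and Psmb6 do not differ in WT_M0 beyond their spread (SD 9.85 and 9.87). Psme4 was then the lowest member, at 13.7 in WT_M0 and 28.7 in WT_M1.

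The genes that build and regulate the proteasome were taken from lists chosen with earlier results of these data known. Their counts stand beside the 34.2% of tested genes that rose in each genotype and the 37.1% in WT and 36.0% in cKO that fell. Of 5 assembly chaperones, 1 rose with M1 and 2 fell in each genotype. Pomp, which guides late steps of core assembly, rose by 1.40 in WT and 1.28 in cKO. Psmg1 and Psmg2, the pair that assembles the alpha ring, fell: -1.54 and -1.07 in WT, -1.42 and -1.24 in cKO. Their levels were low, 11.5 ± 0.425 CPM (SD, n = 3) in WT_M0 and 3.98 ± 0.633 in WT_M1 for Psmg1. The median of the 5 was -0.27 in WT and 0.061 in cKO.

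Of 8 genes around NRF1, the transcription factor known to raise subunit genes when proteasome capacity is short, 3 rose and 3 fell in WT and 4 rose and 2 fell in cKO, near the shares over all genes. Nfe2l1, the NRF1 gene itself, stood at 203, 209 and 223 CPM in WT_M0 and 609, 646 and 631 in WT_M1, and at 194, 210.3 and 189.6 and 511, 515 and 547 in cKO. It rose by 1.57 (SE 0.074) and 1.40 (SE 0.074), and it was lower in cKO_M1 than in WT_M1 without overlap (-0.26 (SE 0.072), adjusted p = 0.0198, 0.0625 without cKO_M1 replicate 8). Ddi2, the protease that frees NRF1, fell in WT (-0.73 (SE 0.11)) and in cKO (-0.51 (SE 0.11)). Ngly1, which removes its sugars, rose by 0.42 in WT and 0.52 in cKO, and Vcp, which pulls it from the membrane, by 0.41 in cKO; with library totals these turned to -0.16, -0.021 and -0.12. Vcp lay at 0.14 in WT and did not pass there. Bach2, which shares small Maf partners with NRF1, fell (-2.19 and -2.02). The medians of the 8 were -0.016 and 0.14. For cKO against WT in M0, Nfe2l2 at -0.26 and Ddi2 at -0.26 had the smallest p and did not pass under edgeR. DESeq2 called Nfe2l2 lower there (adjusted p = 0.0392). In the interaction Vcp at 0.27 and Nfe2l2 at 0.20 did not pass.

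Other subunits and bound factors were 13, of which 12 were tested: 6 rose and 3 fell with M1 in each genotype (medians 0.41 and 0.26). Adrm1, a ubiquitin receptor of the 19S base, rose by 1.44 and 1.23, and Psmd10, an assembly partner of the ATPases, by 1.196 and 1.33. Ecpas, which binds the 26S particle, rose by 0.99 in WT and 0.77 in cKO. Uchl5, a deubiquitinase held by Adrm1, was the one listed gene called between genotypes in M0 in the main edgeR test. It stood at 22.5, 25.4 and 24.7 CPM in WT_M0 and 33.4, 29.8 and 34.4 in cKO_M0 (log2 0.42 (SE 0.099), adjusted p = 0.0468), but the call was lost without any 1 of 5 of the 6 libraries, WT_M0 replicate 5 being the exception (adjusted p 0.0809 to 0.257). Usp14, the other 19S deubiquitinase, fell in WT (-0.62 (SE 0.092)) and in cKO (-1.11 (SE 0.093)). In cKO against WT in M1 it lay at -0.27 (adjusted p = 0.0545) and Adrm1 at -0.20 (adjusted p = 0.0687); DESeq2 called both (adjusted p = 0.0267 and 0.0158).

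Of 13 ubiquitin genes and shuttles, 9 rose and 1 fell in each genotype (medians 0.71 and 0.49). Zfand5, a ubiquitin-binding protein that stimulates the 26S proteasome, stood at 90.4, 84.2 and 87.4 CPM in WT_M0 and 323, 364 and 297 in WT_M1, and at 87.6, 83.7 and 96.3 and 204, 203 and 223 in cKO. In M1 it was lower in cKO by a log2 difference of -0.64 (SE 0.086) (adjusted p = 1.79e-04), with no overlap. Its relative Zfand2a, known as an arsenite-inducible proteasome partner, stood at 239, 281 and 235 CPM in WT_M1 and 162, 164 and 177 in cKO_M1 (log2 -0.59 (SE 0.08)). Ubd, the ubiquitin-like tag FAT10, had 0 counts in all 6 M0 libraries. In M1 it stood at 14.3, 13.6 and 14.5 CPM in WT and 10.2, 7.09 and 6.59 in cKO, lower in cKO by -0.83 (SE 0.17) (adjusted p = 0.00624). Rad23b, a shuttle receptor, rose by 0.95 in WT and 0.66 in cKO, and the polyubiquitin gene Ubb by 1.21 and 1.12. In M0 Rad23b, at 0.13, did not differ past the threshold.

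The 10 class I loading genes, which carry proteasome products to MHC class I, rose in both genotypes without exception (medians 2.24 and 2.24). Tapbpl and Tapbp, which edit and load peptides, rose by 3.49 and 2.49 in WT, the transporter genes Tap2 and Tap1 by 2.57 and 2.85, and the light chain B2m by 2.25. In cKO Tapbpl, Tapbp, Tap2, Tap1 and B2m rose by 3.51, 2.44, 2.94, 3.00 and 2.19. None of the 10 passed between genotypes: in M0 Pdia3 lay at 0.18 and H2-D1 at -0.18, and in M1 Erap1 at -0.22 and Pdia3 at 0.17. The interferon-gamma transcription factors and their feedback gene also rose, 8 of 8 in each genotype (medians 1.99 and 2.11): Irf1 by 4.03 and 4.37, Irf8 by 1.86 and 2.27, and Socs1, the feedback inhibitor, by 5.47 and 6.52. In M1, 2 of the 8 were higher in cKO, beside 8.98% of tested genes. Socs1 stood at 126, 83.9 and 166 CPM in WT_M1 and 316, 323 and 249 in cKO_M1 (log2 1.24 (SE 0.21), adjusted p = 9.27e-04), and Irf2 at 97.8, 78.1 and 102 and 124, 139 and 138 (log2 0.53 (SE 0.10), adjusted p = 0.00261), while the 5 inducible proteasome genes beside them did not pass.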

How the data were processed

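Total RNA of 12 libraries of bone marrow-derived macrophages (4 groups of 3, from the sample labels) was sequenced. The authors deposited 1 table of raw counts per gene, with a gene length in bases, per the file headers; no value was normalized. The submitters' processing notes name featureCounts 2.0.3, SAMtools 1.16.1, HISAT2 2.2.1 and Trimmomatic 0.39, and the build GRCm39. No source used here gives their options or the annotation release. Of the 56980 gene IDs, 52073 matched a symbol in a RefSeq-based name table, and the other 4907 held 0.156% to 0.243% of a library's counts. Of the counts from 1 to 10, 60.9% were even, so the fit was repeated with counts halved.

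The main test was edgeR's (4.0.16, R 4.3.3): filterByExpr (minimum count 10, minimum total 15; 15110 genes), TMM factors (group means 1.21 in WT_M0, 1.22 in cKO_M0, 0.808 in WT_M1, 0.840 in cKO_M1), 1 mean per group, quasi-likelihood F-tests, with p-values adjusted by Benjamini-Hochberg over every tested gene and 0.05 as the threshold. The common biological coefficient of variation was 0.111. Standard errors are the fold change divided by the root of F; the script was tested on simulated data. Alternatives were DESeq2 1.42.0, other scalings, no filter, halved counts, only the groups compared, and each library left out. The count of members without overlap under library totals, and the principal transcript's length in GENCODE vM21, were chosen after seeing the data. Promoter windows are RefSeq's on GRCm38.p6; shared sequence and exon overlaps were computed on GENCODE vM21 (GRCm38), another build than the authors'.

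The 38 members and all gene lists were chosen with earlier results of these data known. Named with every library's value were the 5 inducible and 3 constitutive catalytic genes. Named besides, for each comparison, were up to 8 further members with the smallest p, Psme3 and Psme4, and for each further list the called genes with the smallest p (up to 4), or, with none called, the 2 with the smallest p. A few genes that this rule names are not reported here. Values for other members and listed genes, such as Psmb1, were added after they were seen.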

Additional observations from a re-analysis of the deposited data

Results flagged for a closer look

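In 6 of the proteasome genes and the genes of the further lists the difference between the M1 and M0 effects of genotype, tested as the interaction by edgeR's quasi-likelihood test with Benjamini-Hochberg adjustment, passed the threshold, which 4.02% of all tested genes passed upward and 4.14% downward. Among the 38 proteasome genes this was 1, Psmd8 (-0.71, SE 0.17), the lid subunit that rose by 1.14 in WT and 0.43 in cKO. That is a smaller share than the one of all genes called downward. Among the genes of the further lists it was Zfand5 (-0.67), Zfand2a (-0.63), Uchl5 (-0.52), Usp14 (-0.49) and Irf2 (0.53). Over the proteasome genes and the further lists together, these 6 calls were no more frequent than both shares combined.

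Zfand5 and Zfand2a, both of the zinc finger family that works with the proteasome, kept their call whichever of the 12 libraries was left out. Their M0 levels were alike in the genotypes, with 123, 127 and 127 CPM in WT_M0 and 124, 132 and 133 in cKO_M0 for Zfand2a, and the M1 groups did not overlap. The calls of Usp14, Uchl5 and Irf2 were lost with any of 7, 8 and 8 libraries left out (adjusted p 0.0535 to 0.0942, 0.0622 to 0.101 and 0.0593 to 0.101). The 7 of Usp14 were WT_M0 replicates 4 and 6, cKO_M0 1 and 3, WT_M1 10 and 11 and cKO_M1 8. Uchl5 added cKO_M1 replicate 9 to these, and Irf2 had WT_M0 replicates 4, 5 and 6, cKO_M0 1 and 3, WT_M1 11 and cKO_M1 8 and 9. Usp14 stood at 74.6, 82.5 and 71.2 CPM in WT_M0 and 88.4, 88.3 and 89.8 in cKO_M0, and at 53.4, 52.9 and 42.3 and 38.9, 42.6 and 41.7 in M1: above WT in every cKO library of M0, and with overlap in M1. Uchl5 stood at 22.1, 19.6 and 17.6 CPM in WT_M1 and 19.2, 19.3 and 16.98 in cKO_M1, with overlap.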

How the results depend on the processing

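The counts of members that rose with M1 were 37 in WT and 35 to 36 in cKO whichever library of the 2 groups was left out. Library totals in place of TMM gave 2 members lower in WT, beside 59.6% of tested genes. In cKO they gave 23 higher and 2 lower, beside 18.4% and 57.5%. For cKO against WT in M1 they gave 2 higher, beside 13.1%, and 4 higher without overlap. For M1 the upward share of all genes without overlap was 17.4% under TMM and was not computed with library totals. On that scale the M1 to M0 log2 differences of Psmd1, Psmd6 and Psme3 in WT turned to -0.082, -0.52 and -0.29, and in cKO those of Psma1, Psmb1, Psmc3, Psmd1, Psmd6, Psmd8, Psmd12, Psmd14 and Psme3 to -0.029, -0.17, -0.072, -0.14, -0.47, -0.11, -0.063, -0.078 and -0.39. Ngly1 turned to -0.16 in WT and -0.021 in cKO, and Vcp to -0.12 in cKO. All of these lay above the median of all genes on the same scale. Without the low-count filter 11 members were higher in M0, beside 2.58% of tested genes, and 1 was higher in M1, beside 1344 of 27501 genes. In the interaction 5 were lower, beside 4.31%. DESeq2 gave 2 higher in M0, beside 3.39% of the genes it tested, and 4 lower in the interaction, beside 7.33%. In M1 it gave 1 higher and 3 lower, beside 9.84% and 12.4%. With only the 2 groups compared, 1 member was higher in M0, beside 201 of 14412 genes. The cause of these shifts was not tested. With 1 library left out, the members higher in M1 were 0 to 4, those lower 1 to 3, and those lower in the interaction 0 to 7. No paired analysis was possible from the labels, because the 12 replicate numbers are all different and no 2 groups share one. Whether M0 and M1 libraries of a genotype came from the same mice is not given, and the fit took them as unpaired. Leaving out the division by length does not change the log2 differences of the pair ratios. With 3 libraries per group an exact test cannot go below 0.1, whatever the depth.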
